A study of Homo sapiens with 6 samples.

Results

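Nonsense-mediated decay (NMD) factors were examined by ribosome profiling, with and without depletion of N6AMT1, in K562, a human line derived from a chronic myelogenous leukemia. The genes were taken by symbol, as the UPF factors UPF1, UPF2, UPF3A and UPF3B and the SMG factors SMG1, SMG5, SMG6, SMG8 and SMG9. All 9 were listed among the 19330 genes of the count table, and all 9 held enough footprints to be tested, as did 9202 genes in all. Control cells (sgCtrl, 3 libraries) carried the lentiviral vector pLentiCRISPRv2 with guides against olfactory receptor genes (OR11A1 and a gene that the labels spell OR2M49 and the methods OR2M4), and depleted cells (sgN6AMT1, 3 libraries) carried it with a guide against N6AMT1. Both groups were selected in puromycin for 48 h and analysed 10 days after infection, and each library came from an independent lentiviral infection. The cells were transduced populations, so edited and unedited cells cannot be told apart in them, nor can fewer expressing cells be told apart from fewer footprints per cell. Which control guide each sgCtrl library carried is not given in the sources used here.

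NMD is the pathway that destroys mRNAs on which translation ends too early, and it also sets the level of many intact mRNAs. A ribosome that stops far from the poly(A) tail, or upstream of an exon junction complex, leaves its release factors eRF1 and eRF3 in contact with the RNA helicase UPF1. UPF2 and UPF3B tie UPF1 to the junction complex, the kinase SMG1 phosphorylates UPF1 and is held in check by SMG8 and SMG9, and phosphorylated UPF1 recruits the endonuclease SMG6 and the adaptor SMG5. Several mRNAs of these factors are themselves described as NMD substrates. N6AMT1 methylates eRF1, the protein that reads stop codons. The paper describes the role of this methylation in eukaryotes as less clear, and it found ribosome occupancy at stop codons unchanged upon depletion. A tie between this methylation and NMD was not tested.

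Since eRF1 reads the stop codon and the base after it, the end of each coding sequence (CDS) is shown with the last 12 coding bases, the stop codon in capitals and the 6 bases that follow, on the strand of the mRNA, from the transcript listed in the table and GENCODE on GRCh38.
UPF1 (chr19:18866161-18866163, plus strand): ctgtcccagtatTAAaaggtg
UPF2 (chr10:11921298-11921300, minus strand): gggaggagacgtTGAtccagc
UPF3A (chr13:114304915-114304917, plus strand): gaagaggcagagTGAgtcact
UPF3B (chrX:119834878-119834880, minus strand): ggaggagaggagTGAtaagtc
SMG1 (chr16:18809569-18809571, minus strand): acagcctgggtgTGAatggca
SMG5 (chr1:156250587-156250589, minus strand): aaggaaattggtTGAtactga
SMG6 (chr17:2061492-2061494, minus strand): gcccaggtgggcTGAgggagc
SMG8 (chr17:59215000-59215002, plus strand): gcagtaacacaaTAAgtgttt
SMG9 (chr19:43731596-43731598, minus strand): cgcctgctggccTGAggccaa
Of these 9 coding sequences, 7 ended in TGA and only UPF1 and SMG8 in TAA. TGA ended 49.1% of the 8596 tested genes with an annotated stop codon, TAA 29.7% and TAG 21.2%. SMG1 and UPF3B, the genes that passed the test described below, ended in TGA like most of the 9, followed by A and by T. The UPF3B call rested on single libraries, as given below. Over all tested genes, the median log2 fold change of footprints (sgN6AMT1 over sgCtrl) was 0.01 for TGA, 0.03 for TAG and -0.01 for TAA, and 24.7%, 27.5% and 29.5% of these genes passed the test.

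The libraries held 1821356 to 2969736 footprint counts, and TMM factors lay between 0.979 and 1.02. The chi-square statistic per degree of freedom was 1.25 to 1.68 between libraries of a group and 4.89 to 7.04 between groups, so no library stood apart from its own group. Levels are given in CPM, counts scaled to a common library size. N6AMT1 itself was at 12.5 ± 4.24 CPM in the control libraries and at 4.2 ± 0.27 CPM in the depleted ones (SD, n = 3 each). All 11 markers of the erythroid identity of K562 held enough footprints to be tested, HBG1 and HBG2 at the highest levels, and the lymphoid genes CD8A and MS4A1 had 0 counts in every library. Of these 11 markers, 7 (63.6%) passed the test described below, against 26.9% of all tested genes. HBE1 and TAL1 were the 2 higher (log2 fold changes 0.48 each). The 5 lower were LMO2 at -1.44, MYB at -0.38, KLF1 at -0.37, TFRC at -0.33 and GATA1 at -0.29. Together the 11 took 2.50% to 2.62% of counts in sgCtrl and 2.68% to 2.75% in sgN6AMT1. Within this sum HBE1 rose from a mean of 3567 CPM in sgCtrl to 4977 CPM in sgN6AMT1, while HBG1 and HBG2 did not pass. Of 14 markers of other cell types, 6 were tested and the epithelial KRT8 and KRT18 were higher (log2 fold changes 0.44 and 0.27), with a summed share for the list of 0.199% to 0.205% in sgCtrl and 0.259% to 0.265% in sgN6AMT1. These markers moved with the groups, and their part in the results was not tested.

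Footprints on the NMD factors were largely kept upon N6AMT1 depletion. SMG1, the kinase of the pathway, was lower in sgN6AMT1, UPF3B, a bridge to the exon junction complex, was higher, and the other 7 genes did not pass the test. Thus 2 of 9 genes (22.2%) passed an adjusted p of 0.05 in edgeR's quasi-likelihood test, where 26.9% of all tested genes did (12.9% higher, 13.9% lower), so the share of changed genes was near the background. The log2 fold change was negative for 6 genes and positive for 3, with a median of -0.15 beside 0.01 over all tested genes. The 9 genes together took 0.0668% to 0.0735% of all counts in sgCtrl and 0.0698% to 0.0725% in sgN6AMT1, and these ranges overlapped. The values of the groups did not overlap for 3 genes, SMG1, UPF3A and UPF1, where 37.5% of all tested genes had no overlap.

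**Figure D1:**
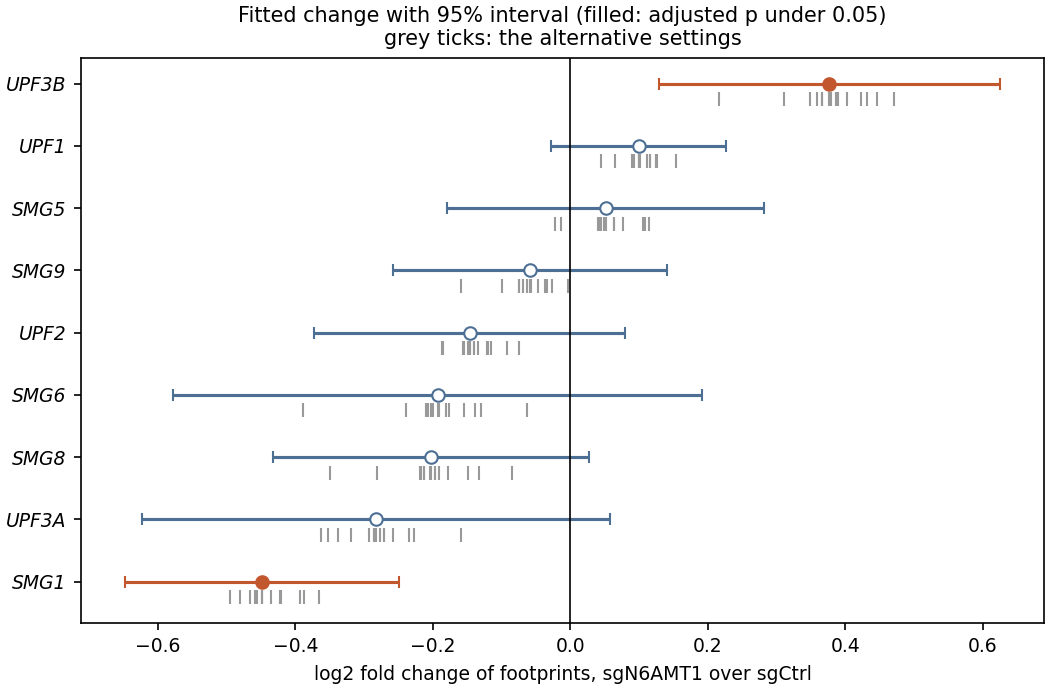
Log2 fold change of footprints, sgN6AMT1 over sgCtrl, of the 9 NMD factors (x axis), with the 95% interval of edgeR's fit as bars, and the values under 15 alternative settings (14 for SMG6) as grey ticks. SMG1 at -0.45 lies below 0 in every setting, UPF3B at 0.38 lies above 0 in every setting, and the intervals of the other 7 genes include 0.

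SMG1, SMG8 and SMG9 form the complex that marks UPF1. SMG1 (ENST00000446231.6, chromosome 16, 18804860 to 18926408, 63 exons, CDS of 10983 bases) had 104, 96.5 and 99.1 CPM in the sgCtrl libraries and 67.1, 74.7 and 78.2 CPM in the sgN6AMT1 libraries. Every sgN6AMT1 library lay below every sgCtrl library. Mean levels were 100.03 ± 4.06 CPM in sgCtrl and 73.3 ± 5.69 CPM in sgN6AMT1 (SD, n = 3 each). SMG1 therefore fell to 0.733 of its control level (log2 fold change -0.45, SE 0.10, edgeR adjusted p 0.000238). None of the 15 alternatives removed this call, and the fitted log2 values lay between -0.50 and -0.37.

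The copies and the length of SMG1 bear on how this value is read. Of the 28-base windows of its CDS, a length close to that of a footprint, 30% also occurred in transcripts of other genes, chiefly the SMG1P pseudogenes of chromosome 16, and 0% in any other transcript of the count table. Footprints counted on SMG1 may therefore come in part from these copies, and their part in the change was not tested. The SMG1 CDS was longer than that of 99.6% of tested genes, and long coding sequences were more often lower. Of the 431 tested genes with a CDS of at least 4569 bases, the longest 5%, 100 (23.2%) were lower and 31 higher. Over all tested genes 13.9% were lower and 12.9% higher. In all, 30.4% of these long genes passed, near the 26.9% of all tested genes, and their median log2 fold change was -0.10. With trends on CDS length and GC content removed, the log2 fold change of SMG1 was -0.37 (edgeR adjusted p 0.00127), beside -0.45 in the main fit. The part of CDS length in the change was not tested.

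SMG8 and SMG9, which bind SMG1 and restrain its kinase activity, did not pass. SMG9 (ENST00000270066.10, chromosome 19, 43727983 to 43754962) had 89.4, 84.8 and 84.3 CPM in sgCtrl and 86.8, 79.1 and 82.0 CPM in sgN6AMT1. These values overlapped (log2 fold change -0.06, 95% interval -0.26 to 0.14, edgeR adjusted p 0.719). SMG8 (ENST00000300917.9, chromosome 17, 59210035 to 59215230, 4 exons) had 79.9, 72.4 and 63.1 CPM in sgCtrl and 73.6, 62.2 and 49.4 CPM in sgN6AMT1. The spread within each group was as wide as the difference of their means (log2 fold change -0.20, 95% interval -0.43 to 0.03, edgeR adjusted p 0.196), and only without sgN6AMT1 replicate 1 did SMG8 pass (log2 fold change -0.35, edgeR adjusted p 0.0293). The whole SMG8 CDS lies within another annotated gene of the same strand, ENSG00000265303, whose transcripts held 5.93% of its 28-base windows.

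The UPF factors form the core that senses termination. UPF1 (ENST00000599848.5, chromosome 19, 18832001 to 18868229), the helicase, had 266, 264 and 235 CPM in sgCtrl and 267, 268 and 287 CPM in sgN6AMT1. The sgN6AMT1 values all lay above those of sgCtrl, narrowly, and the difference did not pass (log2 fold change 0.10, 95% interval -0.03 to 0.23, edgeR adjusted p 0.26). UPF2 (ENST00000397053.6, chromosome 10, 11920023 to 12043170), the scaffold between UPF1 and UPF3, had 63.8, 65.2 and 59.2 CPM in sgCtrl and 59.6, 54.9 and 55.9 CPM in sgN6AMT1. Its groups touched at sgN6AMT1 replicate 1 and sgCtrl replicate 3 (log2 fold change -0.15, 95% interval -0.37 to 0.08, edgeR adjusted p 0.369).

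UPF3A and UPF3B are paralogs that compete for UPF2, and UPF3B is the form that bridges to the junction complex. UPF3B (ENST00000276201.6, chromosome X, 119834022 to 119852963) had 45.7, 35.2 and 48.8 CPM in sgCtrl and 59.6, 56.2 and 48.3 CPM in sgN6AMT1. The third library of each group had nearly the same value, so the groups overlapped, and sgCtrl replicate 2 was the lowest of the 6. Mean levels were 43.2 ± 7.15 CPM in sgCtrl and 54.7 ± 5.79 CPM in sgN6AMT1 (SD, n = 3 each), and the increase passed (log2 fold change 0.38, SE 0.13, edgeR adjusted p 0.0164). The UPF3B call rested on single libraries, being lost without sgCtrl replicate 2 (log2 fold change 0.22, edgeR adjusted p 0.3), without sgN6AMT1 replicate 1 (0.31, adjusted p 0.0923) and without sgN6AMT1 replicate 2 (0.36, adjusted p 0.0707). It was not made by DESeq2 (log2 fold change 0.35, adjusted p 0.232), so UPF3B passed in 11 of 15 alternatives with adjusted p-values from 0.00544 to 0.3.

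UPF3A (ENST00000375299.7, chromosome 13, 114281601 to 114305817) had 23.1, 29.3 and 24.6 CPM in sgCtrl and 21.5, 22.9 and 19.5 CPM in sgN6AMT1. These groups did not overlap, but with 36 to 85 counts per library the difference did not pass (log2 fold change -0.28, 95% interval -0.62 to 0.06, edgeR adjusted p 0.228). Of its 28-base windows, 66.5% also occurred in the pseudogenes UPF3AP1, UPF3AP2 and UPF3AP3, so its footprints cannot be assigned with confidence. For UPF3B this share was 0.491%, and for UPF1, UPF2, SMG5, SMG6 and SMG9 it was 0%.

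SMG5 and SMG6 act after UPF1 is phosphorylated, SMG5 as an adaptor that brings in decapping and deadenylation and SMG6 as the endonuclease that cuts the mRNA near the stop codon. SMG5 (ENST00000361813.5, chromosome 1, 156249224 to 156282825) had 59.8, 62.4 and 51.8 CPM in sgCtrl and 65.3, 60.9 and 54.3 CPM in sgN6AMT1. The groups overlapped (log2 fold change 0.05, 95% interval -0.18 to 0.28, edgeR adjusted p 0.791), and the sign turned without sgCtrl replicate 3 (log2 fold change -0.02) and without sgN6AMT1 replicate 1 (-0.01). SMG6 (ENST00000263073.10, chromosome 17, 2059843 to 2303785) had 18.6, 21.4 and 19.7 CPM in sgCtrl and 14.5, 21.6 and 16.3 CPM in sgN6AMT1. With 30 to 62 counts per library its interval was the widest of the 9 genes (log2 fold change -0.19, 95% interval -0.58 to 0.19, edgeR adjusted p 0.507), and a change of this size was not detectable at this depth. Stretches of 128 and 88 bases of the SMG6 CDS lie within HIC1 and SRR on the opposite strand.

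**Figure D2:**
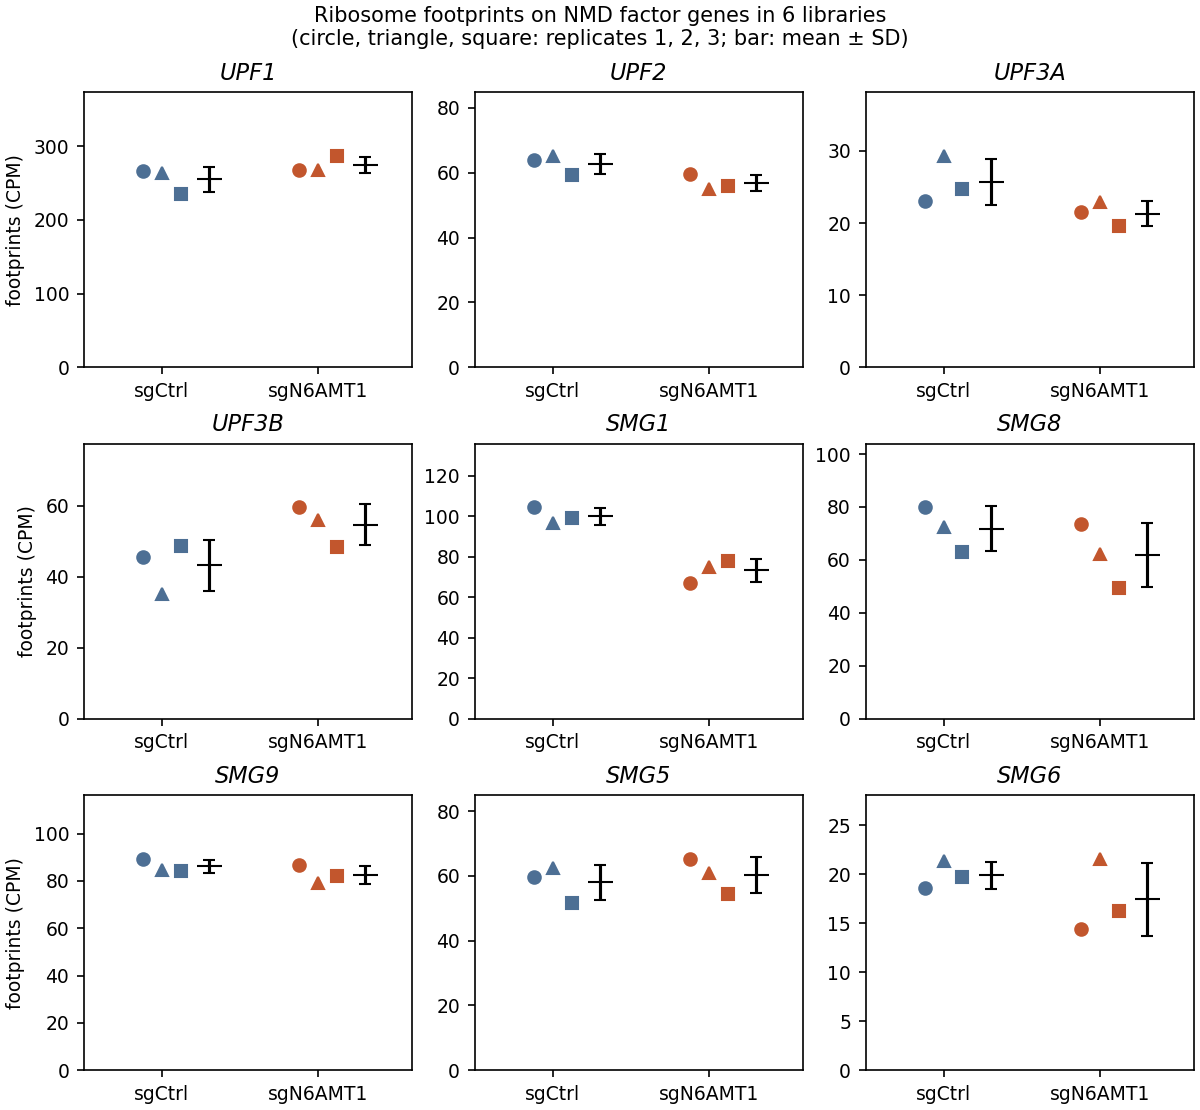
Footprints in CPM (y axis, from 0) on each of the 9 NMD factors in the 3 sgCtrl and 3 sgN6AMT1 libraries, with the mean and SD beside the points. SMG1 separates the groups most clearly, at 96.5 to 104 against 67.1 to 78.2 CPM, while SMG9, SMG5 and SMG6 overlap.

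Levels were compared between genes per length, as CPM per kilobase of CDS. In sgCtrl the order was UPF1 at 75.2 ± 5.13, SMG9 at 55.2 ± 1.8, UPF3B at 29.8 ± 4.94, SMG8 at 24.1 ± 2.82, SMG5 at 19.0 ± 1.82, UPF3A at 18.0 ± 2.26, UPF2 at 16.4 ± 0.82, SMG1 at 9.11 ± 0.37 and SMG6 at 4.67 ± 0.33 CPM per kilobase (SD, n = 3 each). The order was the same in sgN6AMT1, from UPF1 at 80.9 ± 3.24 to SMG6 at 4.1 ± 0.87 CPM per kilobase (SD, n = 3 each). UPF1 lay above SMG9, SMG9 above UPF3B, and UPF2 above SMG1 above SMG6 without overlap in either group. UPF3B and SMG8, SMG5 and UPF3A, and UPF3A and UPF2 were neighbours whose sgCtrl values overlapped, and in sgN6AMT1 only SMG8 and SMG5, and UPF3A and UPF2, overlapped. By these sgCtrl means, the density on the helicase UPF1 was 16.1 times that on the endonuclease SMG6, and the density on SMG9 was 6.06 times that on the kinase it binds. Densities were divided by CDS length, although the sources do not state whether the counts cover the CDS alone. For SMG1 and UPF3A they may also include footprints from pseudogene copies.

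**Figure D3:**
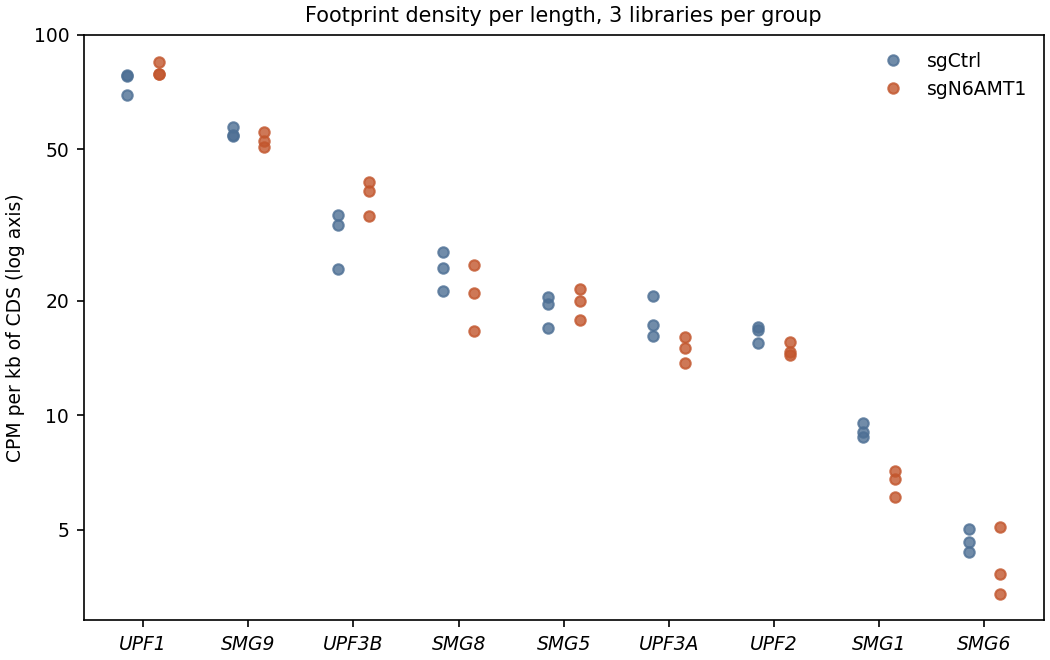
Footprint density in CPM per kilobase of CDS (y axis, log scale) of the 9 NMD factors in each library, ordered by the sgCtrl mean. Density falls from 75.2 for UPF1 to 4.67 for SMG6 in sgCtrl, and the order is the same in sgN6AMT1.

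To compare partners without any scaling between libraries, the ratio of footprint densities was taken within each library for 5 pairs. SMG1 over SMG9 was 0.166, 0.162 and 0.167 in sgCtrl and 0.11, 0.134 and 0.135 in sgN6AMT1, lower in every depleted library. UPF3B over UPF3A was 1.95, 1.18 and 1.95 in sgCtrl and 2.74, 2.42 and 2.44 in sgN6AMT1, higher in every depleted library. UPF2 over UPF1 was 0.213, 0.219 and 0.224 in sgCtrl and 0.198, 0.182 and 0.173 in sgN6AMT1, again without overlap. For each of these 3 ratios the 2-sided exact permutation p was 0.1, the smallest that 3 against 3 libraries can give (0.167 after Benjamini-Hochberg adjustment over the 5). SMG1 over SMG8 and SMG6 over SMG5 overlapped between the groups (exact permutation p = 0.5 and 0.3). The pairs were chosen by the roles of the proteins with the single values known.

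**Figure D4:**
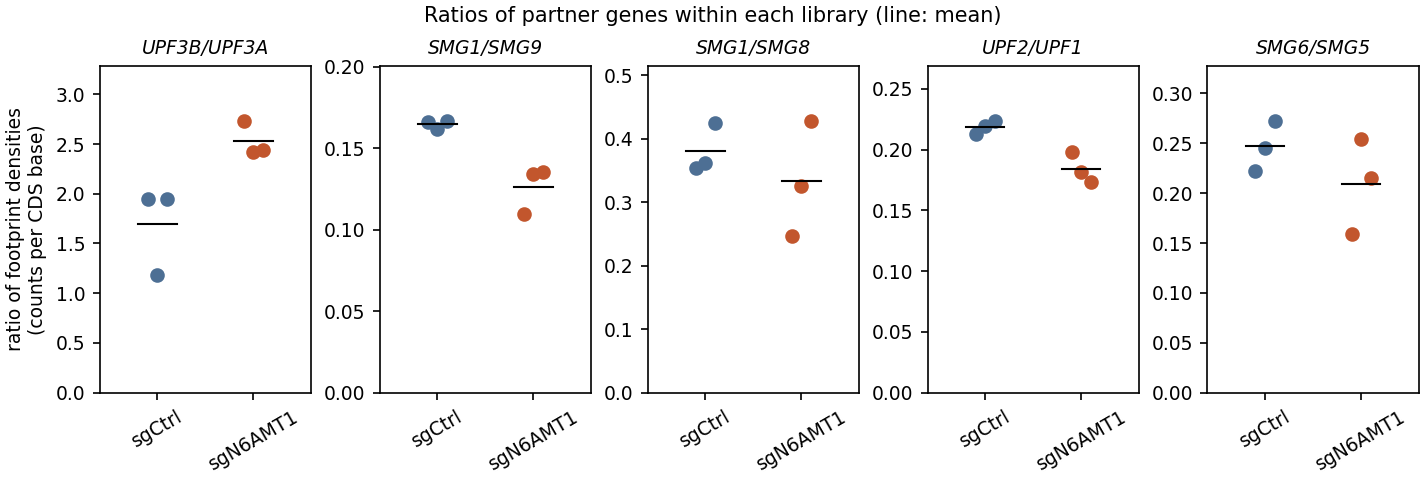
Ratio of footprint densities (counts per CDS base) of 5 pairs of NMD factors within each library (y axis, from 0), with the group mean as a line. UPF3B over UPF3A is higher, and SMG1 over SMG9 and UPF2 over UPF1 are lower, in each of the 3 sgN6AMT1 libraries than in any sgCtrl library.

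Some features of the mRNAs that the choice of genes did not use were set beside those of all tested genes. All 9 had a CDS longer than the median of tested genes, 1392 bases, from 1428 bases in UPF3A to 10983 in SMG1. Of these, UPF3A, UPF3B and SMG9 lay close to that median, at percentiles 51.8, 52.9 and 57.0. The 3′ untranslated region was longer than the median of 931 bases in 6 genes, with 4709 bases in SMG1 and 3613 in SMG9, and only 228 in SMG8. In the listed transcripts 0 of 9 had an exon junction more than 50 bases after the stop codon, a mark of NMD substrates that 1.77% of tested genes carried. An ATG upstream of the start codon was present in 4 of 9, namely UPF2 with 4 and SMG1, SMG5 and SMG9 with 1 each. It was absent in 5 of 9, a share near the 60.6% of tested genes without one. SMG1 had the longest 3′ untranslated region of the 9 and the largest decrease, and SMG9, with the next longest, did not pass. A relation of these features to the changes was not tested. These features are those of GENCODE release 44 and may differ from the older annotation of the authors.

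The rest of the pathway was read from 7 lists of 106 listed genes, of which 102 were tested. In all, 36 of them (35.3%) passed, 11 higher and 25 lower, against 26.9% of all genes. Without TMM factors, on total counts alone, 13 were higher and 17 lower. DESeq2 called 13 of the 106 with an adjusted p (12.3%), of which 12 were lower, near the 12.4% it called over all genes, so the higher share was not seen with DESeq2. In place of 36, edgeR without sgN6AMT1 replicate 2 called 19.

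Factors of termination and poly(A) binding had 4 of 6 genes lower, where 13.9% of all tested genes were, and a median log2 fold change of -0.19. DESeq2 called 3 of them lower, as did edgeR on total counts. Footprints on PABPC4, a poly(A)-binding protein, numbered 501, 735 and 546 in the control libraries and 412, 334 and 311 in the depleted ones. Its level decreased to 165 ± 18.5 CPM from 258 ± 9.65 CPM in sgCtrl (SD, n = 3 each; log2 fold change -0.65, edgeR adjusted p 8.16e-13). PABPC1, which counteracts NMD when close to the stop codon, and the ribosome recycling factor ABCE1 fell by 0.31 and 0.23 on the log2 scale (edgeR adjusted p 5.59e-06 and 0.00112). GSPT1, which encodes eRF3, fell by 0.16 (edgeR adjusted p 0.0276), a call lost in 6 of 15 alternatives, with adjusted p-values from 0.00161 to 0.173. ETF1, which encodes eRF1, did not pass (log2 fold change -0.06, edgeR adjusted p 0.495).

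Among relatives of SMG1 in the PIKK family of large kinases and the proteins that stabilise them, 4 of 12 were lower and 0 higher. Over all tested genes 13.9% were lower and 12.9% higher. The list had a median of -0.12, and DESeq2 called 2 lower. At an unadjusted edgeR p under 0.05 there were 5 lower and 0 higher. Without sgN6AMT1 replicate 2 the count passing the adjusted threshold fell to 1 lower. With trends on CDS length and GC content removed, it was again 4 lower and 0 higher. For ATM, a kinase of the DNA damage response, the control libraries held 77, 100 and 72 counts and the depleted ones 74, 42 and 35. Its sgN6AMT1 replicate 1 lay close to the controls, and the decrease of 0.62 on the log2 scale (edgeR adjusted p 0.00167) was lost in DESeq2 (adjusted p 0.0551) and without sgN6AMT1 replicate 2 (adjusted p 0.065). PRKDC and MTOR fell by 0.31 and 0.30 (edgeR adjusted p 3.48e-07 and 0.00425), the latter with an adjusted p of 0.0557 without sgN6AMT1 replicate 2. ATR and TRRAP did not pass, and of the stabilising proteins only RUVBL2, named after its values were seen, passed (log2 fold change -0.18). ATM, PRKDC and MTOR, with a CDS of 9168, 12384 and 7647 bases, were among the longest 5% of tested genes, of which 23.2% were lower. So were ATR and TRRAP, with 7932 and 11577 bases. The part of CDS length in the values of this list was not tested.

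Of the 12 genes of the exon junction complex, 4 were lower and 1 higher, against 13.9% and 12.9% of all tested genes, and DESeq2 called 2 lower and 0 higher. Their median of -0.04 turned to 0.02 with total counts and to 0.000511 without sgCtrl replicate 1. EIF4A3, the helicase that anchors the complex, was lower at 251 ± 6.64 CPM than the 302 ± 11.9 CPM of sgCtrl (SD, n = 3 each; log2 fold change -0.26, edgeR adjusted p 0.000505). RBM8A, a core subunit, and PNN, a peripheral one, fell by 0.30 and 0.29 (edgeR adjusted p 0.000883 and 0.00552), and PNN did not pass in DESeq2 (adjusted p 0.0567) or without sgCtrl replicate 2 (adjusted p 0.0502). Of 17 exosome and Ski genes, which degrade cleaved mRNA from the 3′ side, 5 were lower and 0 higher (DESeq2 called 1 lower; at an unadjusted edgeR p under 0.05 there were 6 lower and 0 higher), among them EXOSC5, EXOSC1 and EXOSC8 with log2 fold changes of -0.43, -0.41 and -0.35 (edgeR adjusted p 0.00357, 0.00939 and 0.00358). Without sgN6AMT1 replicate 2, only 2 of the 17 were lower.

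Genes of decapping, deadenylation and 5′ to 3′ decay had a median of 0.10, with 4 of 26 higher and 2 lower. These calls made up 23.1% of the list, near the 26.9% of all tested genes, and DESeq2 called 0 of them. At an unadjusted edgeR p under 0.05, 6 were higher and 3 lower. The median turned to -0.02 without sgN6AMT1 replicate 1, and without sgN6AMT1 replicate 2 the calls were 1 higher and 1 lower. Of the genes that passed, CNOT7, CNOT10 and EDC3 had the largest changes, with log2 fold changes of 0.56, 0.29 and 0.37 (edgeR adjusted p 0.0209, 0.00207 and 0.0108), and CNOT7 and CNOT10 overlapped between the groups. XRN1, the exonuclease that removes the 3′ product of SMG6 cleavage, did not pass (log2 fold change -0.12, edgeR adjusted p 0.508). Among 14 tested auxiliary factors, 3 (21.4%) passed, again near the share of all tested genes. PPP2CA and SEC13 were higher and ICE1 lower (log2 fold changes 0.19, 0.17 and -0.34, edgeR adjusted p 0.0105, 0.0281 and 0.0196). None of these calls was made by DESeq2 or by edgeR without sgN6AMT1 replicate 2.

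mRNAs often described as NMD targets moved in both directions. Of the 15 tested, 9 (60%) passed, 4 higher and 5 lower, with a median of 0.18. This median was 0.0463 and 0.0715 without sgCtrl replicate 3 and 2, 0.0624 and 0.0789 without sgN6AMT1 replicate 3 and 1, and 0.0427 with the trends on CDS length and GC content removed. DESeq2 called 1 higher and 4 lower of 18. The higher genes included the stress transcription factors ATF3 and ATF4, with log2 fold changes of 1.08 and 0.53 (edgeR adjusted p 0.00224 and 0.00414), neither of which passed in DESeq2 (adjusted p 0.0695 and 0.0962). ATF3 rested on 14, 19 and 6 control counts beside 30, 28 and 19 after depletion. TBL2 and GADD45A, named after their values were seen, were higher by 0.46 and 0.35 on the log2 scale. IFRD1, whose mRNA carries an upstream reading frame, held 93, 191 and 136 control counts beside 42, 42 and 43 after depletion (log2 fold change -1.61, edgeR adjusted p 2.47e-16). The other lower genes were the splicing factors SRSF2, SRSF3, SRSF6 and TRA2B, also named after their values were seen, whose mRNAs have NMD-prone isoforms with an added exon, and their log2 fold changes ran from -0.49 to -0.19. Footprints were counted on 1 listed transcript per gene, so NMD isoforms were not measured apart. Of 126 tested genes whose listed transcript GENCODE annotates as an NMD target, 29 (23.0%) passed, 12 higher and 17 lower, near the background of 26.9%.

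**Figure D5:**
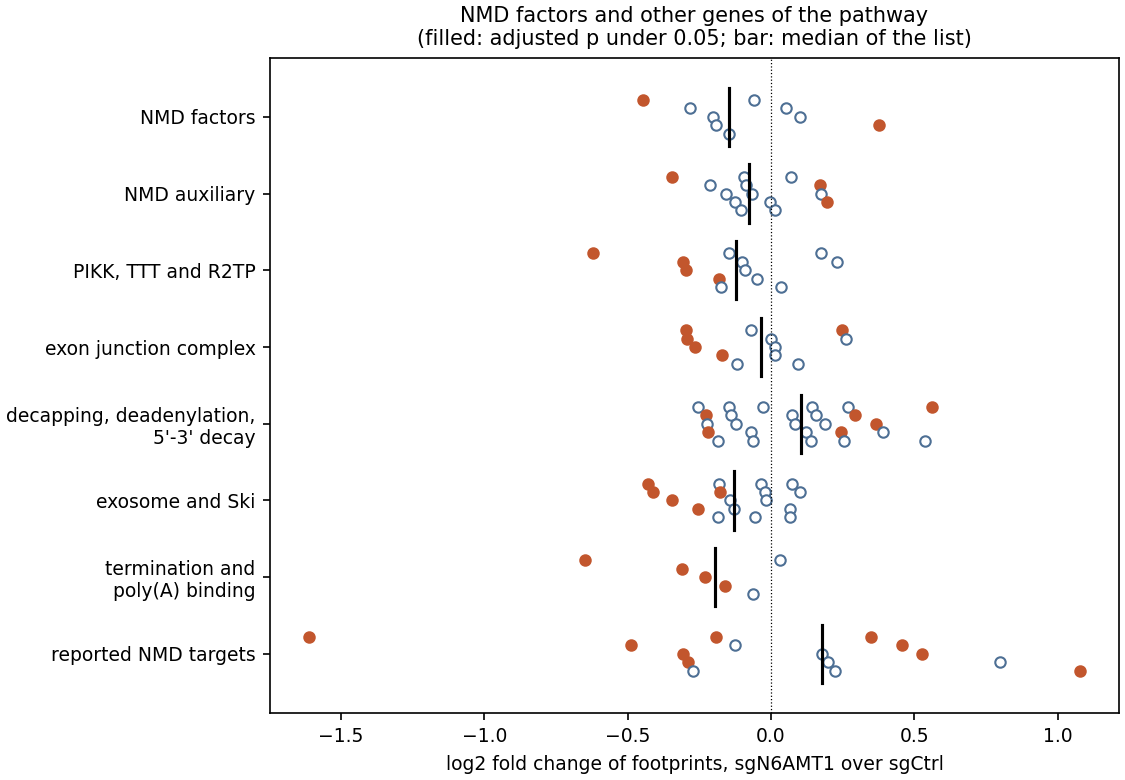
Log2 fold change of footprints, sgN6AMT1 over sgCtrl (x axis), of each tested gene in the 9 NMD factors and 7 lists of related genes, with filled points for an adjusted p under 0.05 and a bar for the median of each list. Termination and poly(A) binding genes have a median of -0.19 with 4 of 6 lower, and reported NMD targets spread from -1.61 for IFRD1 to 1.08 for ATF3.

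The genes whose pattern over the 6 libraries was most like that of SMG1 were FDPS, TAF9B and SAFB2, at root mean square distances of 0.0175, 0.0341 and 0.0352 in centred log2 CPM. FDPS, an enzyme of isoprenoid synthesis, had 354, 322 and 338 CPM in sgCtrl and 231, 257 and 271 in sgN6AMT1. It was chosen for its nearness to SMG1 over these 6 libraries. That both genes were lowest in sgN6AMT1 replicate 1 follows from this choice.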

How the data were processed

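Ribosome footprints of K562 cells were deposited by the authors as 1 table of whole-number counts per listed transcript, neither normalized nor pooled. Per the methods and the submitters' processing notes, reads were trimmed with cutadapt, kept at footprint length, mapped to GRCh38 with HISAT2, cleared of rRNA and tRNA and mapped with Bowtie2 to canonical transcripts. P-sites were summed over each CDS. Counts over a gene annotation were also made, and which of the counts the table holds is not stated. No molecular identifiers are described, so copies made in amplification cannot be told apart from separate footprints. The SE and intervals rest on the spread between libraries of a group as well as on counting error. Footprints follow mRNA level as well as translation, and RNA sequencing was not used here.

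The test was that of edgeR 4.0.16, run in R 4.3.3 (filterByExpr, TMM, robust quasi-likelihood F test, 2-sided, Benjamini-Hochberg adjustment over 9202 genes, threshold 0.05). The filter, at its default minimum of 10 counts, removed genes with 0.465% of counts. Fold changes compare sgN6AMT1 with sgCtrl on the log2 scale, and their SE and 95% intervals follow from the F statistic. Replicates were separate infections. Alternatives were DESeq2 1.42.0, limma-voom (limma 3.58.1), RLE, upper-quartile or no factors, no filter, a mean of at least 50 counts, the replicate number as a block, removal of CDS length and GC trends (loess, span 0.5), and fits without each library. Identifiers without the version were matched to GENCODE release 44 on GRCh38, which placed 17687 transcripts (91.5%).

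The members, the lists and the rule for named genes were chosen with earlier results of these data known. The rule named the NMD factors, N6AMT1, ETF1, GSPT1, EIF4A3, XRN1 and ATF4, up to 3 genes with the largest absolute change past the threshold in each list, and the 3 genes of at least 10 CPM nearest to the NMD factor with the smallest p. LSM4, CNOT6L, EXOSC4 and BAG1 were not analysed here, and 1 gene of the rule is not reported here. Current symbols were used for 5 older ones.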

Additional observations from a re-analysis of the deposited data

How the results depend on the processing

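None of the 15 alternatives removed the call of SMG1 or turned the sign of SMG1 or UPF3B. Of the 37 named genes, 17 kept their direction and side of the threshold throughout. DESeq2 called 1329 genes in place of 2473, 1301 of them shared, with 1 of the 9 NMD factors and 13 of the other pathway genes. With total counts only, the calls were 1560 higher and 976 lower, and lower calls made up 38.5% in place of 51.8%, and the NMD factors called were again 1 higher and 1 lower. The median log2 fold change of the NMD factors was -0.15, and -0.0774 with a mean of at least 50 counts, a setting that tests fewer genes. Without each library in turn, this median ran from -0.19 to -0.08, the number of NMD factors called from 1 to 2, that of other pathway genes from 19 to 33, and that of all genes from 1859 to 2322. NMD factors called fell to 1 without sgCtrl replicate 2 or without sgN6AMT1 replicate 2, and the lowest count of other pathway genes, 19, came without sgN6AMT1 replicate 2. Near 0, signs turned for genes that had not passed, namely SMG5 (log2 fold changes from -0.0220 to 0.115 in the fits without a library) and XRN1 (from -0.231 to 0.0122, positive only without sgCtrl replicate 2). The cause of these turns was not tested.

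The replicate number as a block gave 2390 genes, the same 2 counts of higher and lower NMD factors and a median of -0.15 for them, and it changed no call of an NMD factor. Between libraries with the same number, deviations from the group correlated at -0.0790, 0.0022 and 0.0166 over 7804 genes. Between libraries with different numbers, these correlations ran from -0.0911 to 0.0938. Such values cannot tell whether libraries with the same number were handled together, and the labels do not say. Depth limits SMG6 and UPF3A most, with 30 to 85 counts per library.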
